A study of Mus musculus with 7 samples.

Results

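The genes described here are 43 genes of excitation-contraction coupling and calcium handling in skeletal muscle. They were listed by name for their roles in the fiber, and all 43 were found among the 21951 protein-coding genes of GENCODE M21 on the mouse GRCm38 (mm10) genome. In vivo chromatin occupancy was measured by chromatin immunoprecipitation followed by sequencing (ChIP-seq) in gastrocnemius muscle of wild-type male C57BL/6J mice at 5 months of age, kept on standard chow under an equal cycle of light and dark. Zeitgeber time (ZT) counts hours from lights on, and muscle was taken at ZT 4 for the clock activator BMAL1 and for RNA polymerase II (RNAP2), and at ZT 8 for the clock repressor REV-ERBα, with 2 replicates of each factor. No genotype, treatment or second time point was compared for any factor, so the groups differ by antibody, and REV-ERBα also by time of day. The chromatin came from whole muscle, which also holds vessels, nerve endings and connective tissue.

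In a muscle fiber, an action potential that starts at the endplate runs into the transverse tubules, where a voltage sensor, the dihydropyridine receptor, opens the ryanodine receptor of the sarcoplasmic reticulum. Calcium leaves the store, binds the contractile filaments, is buffered by parvalbumin in fast fibers, and is pumped back by the SERCA pump into a store where calsequestrin holds it. Calmodulin, its kinase and calcineurin carry the same calcium signal to enzymes and to the nucleus.

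The 6 peak lists held between 28881 and 177669 peaks, and lists of the same factor differed in length by as much as 34737 against 177669 peaks for BMAL1. A region was counted as present when overlapping peaks of both replicates lay in it, which gave 10752 RNAP2, 1263 REV-ERBα and 2742 BMAL1 regions. A shared site needed a peak in at least 3 of the 4 REV-ERBα and BMAL1 lists, and there were 550. The labelled tissue was checked with marker genes: an RNAP2 region lay at 10 of 10 markers of the skeletal myofiber, 0 of 5 of heart, 0 of 5 of hepatocytes and 0 of 5 of adipocytes. Of the 10 myofiber markers, which are contractile and metabolic genes, 9 also had a REV-ERBα region, 8 a BMAL1 region and 8 a shared site. Markers of other cells in muscle also had RNAP2 regions, at 3 of 5 fibroblast, 2 of 5 leukocyte, 2 of 5 Schwann cell, 1 of 5 endothelial and 1 of 5 satellite cell genes, and their part in the results was not tested.

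The window of a gene was its body plus 10 kb to each side of every annotated transcription start site (TSS). An RNAP2 region lay in the window of 33 of the 43 genes (76.7%), beside 41.1% of the 21908 other protein-coding genes. With a −log10 q of at least 1.3 required in both lists, 24 genes kept theirs, which was 72.7% of the 33 beside 45.9% of the 8994 other genes that had an RNAP2 region. A REV-ERBα region lay in 15 windows (34.9% of the 43, and 45.5% of the 33), beside 8.36% of those 8994 genes. Under a stricter rule, where both lists had to reach a −log10 p of 3, 9 genes had a REV-ERBα region. This was 20.9% of the 43 and 27.3% of the 33, beside 4.98% of the 8994. The part that was kept was alike, with 9 of the 15 genes here and 448 of the 752 other genes with a REV-ERBα region. A BMAL1 region lay in 5 windows (11.6% of the 43, and 15.2% of the 33), beside 10.2%, and at a promoter in 2 (6.06% of the 33), beside 1.42%. A shared site lay in 5 windows (also 15.2% of the 33), beside 2.99%. For REV-ERBα, BMAL1 and shared sites alike, these shares were below those of the myofiber markers. The lists give no reads per peak, so that the depth behind a single peak is unknown and no counting interval could be given.

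**Figure D1:**
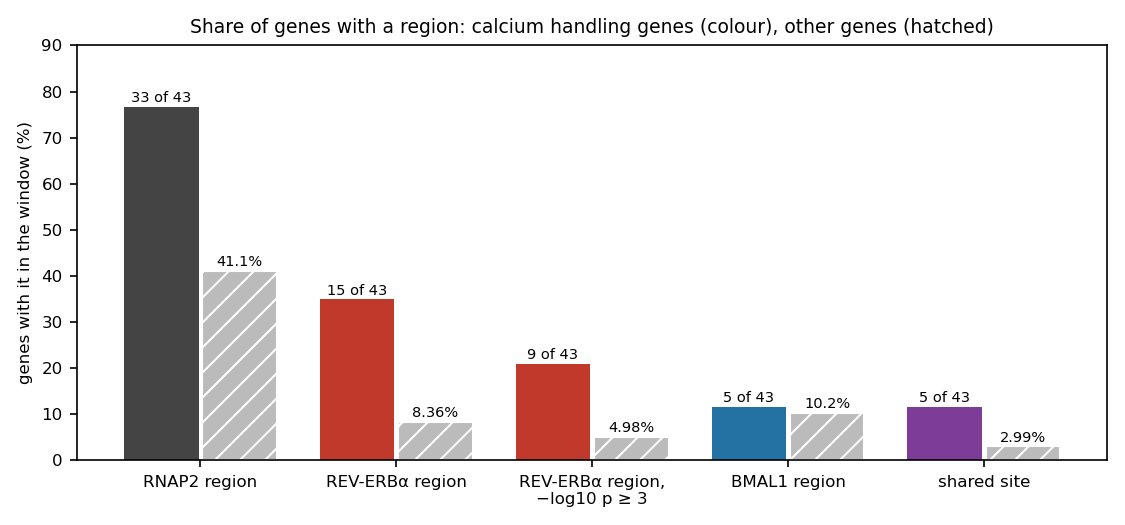
Share of genes (%, vertical axis) with a region present in both replicates, or a shared site, in the gene's window. Coloured bars are the 43 calcium handling genes, with their counts, and hatched bars are other protein-coding genes (21908 for RNAP2, and the 8994 with an RNAP2 region for the rest). The bars differ for RNAP2 (76.7% and 41.1%) and for REV-ERBα (34.9% and 8.36%), and less for BMAL1 (11.6% and 10.2%), where the share of the 33 genes with an RNAP2 region was 15.2%.

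The strength of RNAP2 was read as the highest −log10 p of a peak in the window, which measures how far a peak stood above input DNA in its own list and is not a level of transcription. Over the 33 genes with an RNAP2 region the median was 11.6 in replicate 1 and 7.49 in replicate 2, beside 8.34 and 4.73 over the 8994 other genes. The genes differed widely among themselves, from 3.97 to 74.8 in replicate 1 and from 2.53 to 46.8 in replicate 2. By role, all genes were ranked among the 8994 other genes, also those without an RNAP2 region of their own. The median percentile was 75.0 and 71.9 in the replicates for pump and store genes, and 51.9 and 64.1 for genes of the triad. For endplate genes it was 13.2 and 9.17. Only 2 of the 7 endplate genes had an RNAP2 region, against 6 of 8 and 11 of 12, and all 8994 had one, which lowers the endplate rank. The median gene length was 21.5 kb beside 24.3 kb, but the upper quartile was 114.4 kb beside 61.0 kb, so that the group held more very long genes. A region of REV-ERBα was found 0.491 times per 100 kb of window beside 0.133.

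**Figure D2:**
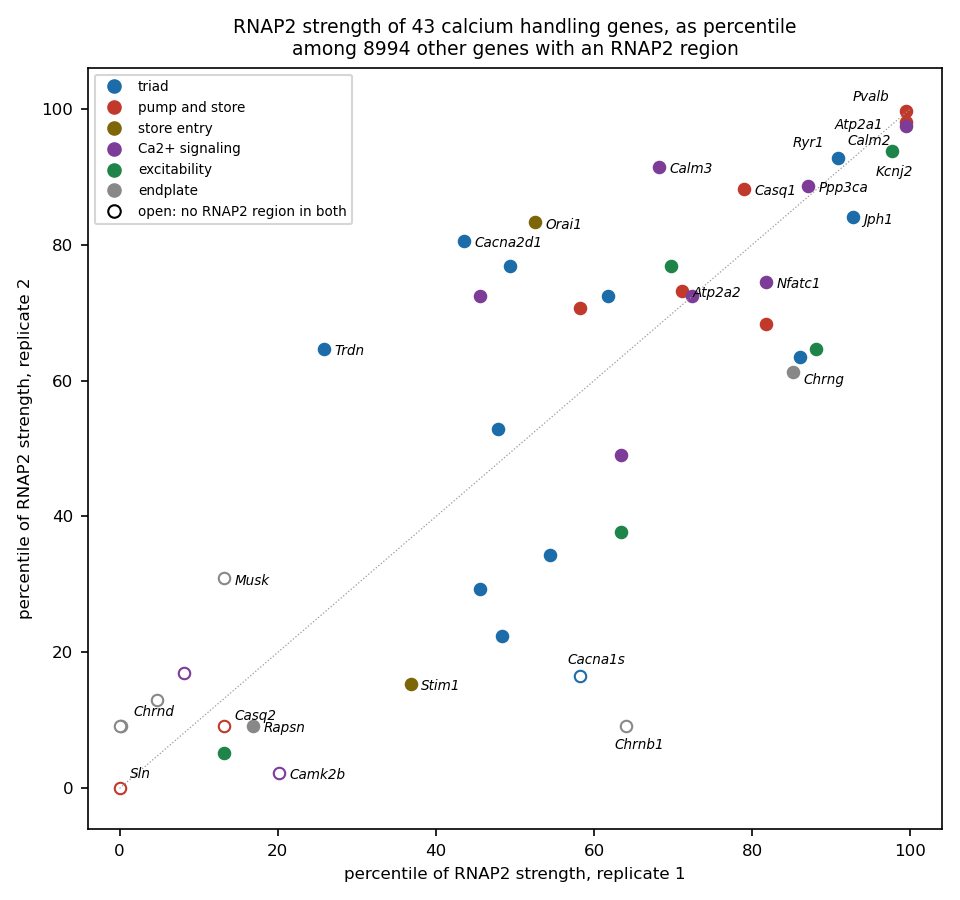
Percentile of each gene's highest RNAP2 −log10 p among 8994 other genes with an RNAP2 region, in replicate 1 (horizontal) and replicate 2 (vertical), with each point a gene coloured by role and open points for the 10 genes without an RNAP2 region in both replicates. Pvalb, Atp2a1 and Calm2 lie at a percentile of 97.4 or above in both replicates, and among the endplate genes Chrnb1 reaches 64.1 in replicate 1 alone and Chrng 85.1 and 61.3, through a region at the neighbouring Eif4e2.

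Among genes of the triad, where tubule and store meet, 11 of 12 had an RNAP2 region and 6 of 12 a REV-ERBα region. Ryr1, the calcium release channel, had RNAP2 peaks at its promoter with a −log10 p of 21.8 and 15.1 in the replicates, and Jph1 had 23.6 and 10.5, which were the highest promoter values of the group. Jph1 and Jph2 encode junctophilins, which tether the tubule to the store. Jph2 had 8.09 and 8.42 at its promoter, so that Jph1 was higher than its relative in both lists. Cacna1s, the pore and voltage sensor of the dihydropyridine receptor, was the one triad gene without an RNAP2 region. A peak of 9.46 lay at its promoter in replicate 1, and replicate 2 had none there, with 3.12 elsewhere in the window. Its partner subunits all had a promoter region, with 6.55 and 6.34 at Cacnb1, 7.49 and 3.26 at Cacng1, and 7.33 and 9.33 at Cacna2d1. The remaining 5 triad genes each had a promoter region too. Their values were 7.90 and 3.26 at Stac3, an adaptor of the voltage sensor, and 7.77 and 3.83 at Jsrp1. Triadin (Trdn), which anchors calsequestrin, had 4.88 and 6.35, Asph, the locus of junctin, had 9.07 and 3.97, and Fkbp1a, which binds the ryanodine receptor, had 10.3 and 7.49. Replicate 1 was higher than replicate 2 at most of these promoters, and the lists are on separate scales.

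The REV-ERBα region at Ryr1 lay 795 bp from the nearest TSS of the gene, with a −log10 p of 5.59 and 7.24, and overlapped the RNAP2 region of the promoter. A BMAL1 peak of 2.56 in replicate 1 made it a shared site, and replicate 2 of BMAL1 had no peak there. At Jph1 the REV-ERBα region lay 768 bp inside the gene, with 4.15 and 2.15, and Jph2 had a pair of weak intronic regions, of which 1 lay nearer to the TSS of Tox2. The E-box CACGTG, the sequence that BMAL1 with its partner is known to bind, lay within 100 bp of the REV-ERBα summit at 2 of the 18 REV-ERBα regions in these windows, beside 3.40% of all 1263, and both were in junctophilin genes, the one in Jph2 being the region nearer to Tox2. They are printed for that reason on the strand of the gene, with the E-box in capitals.
Jph1, chr1:17097021-17097221, minus strand: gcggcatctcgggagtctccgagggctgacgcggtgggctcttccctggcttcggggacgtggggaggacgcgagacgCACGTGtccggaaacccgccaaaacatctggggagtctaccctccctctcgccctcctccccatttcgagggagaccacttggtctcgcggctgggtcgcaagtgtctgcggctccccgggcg
Jph2, chr2:163354094-163354294, minus strand: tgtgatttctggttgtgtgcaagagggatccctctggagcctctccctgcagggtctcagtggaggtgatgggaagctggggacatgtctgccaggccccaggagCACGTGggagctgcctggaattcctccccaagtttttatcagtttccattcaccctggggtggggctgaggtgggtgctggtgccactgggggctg
Neither region had a BMAL1 region in it. Other REV-ERBα regions of the triad were weaker or lay at another gene. The region in the window of Cacnb1, with 15.0 and 18.4, lay 50 bp from the TSS of Rpl19, a ribosomal protein gene, and those in introns of Trdn and Cacna2d1 were weak, with 2.50 and 2.15 and with 1.71 and 2.34. Stac3 showed a promoter peak of 4.70 in replicate 1 of REV-ERBα and none at the promoter in replicate 2.

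**Figure D3:**
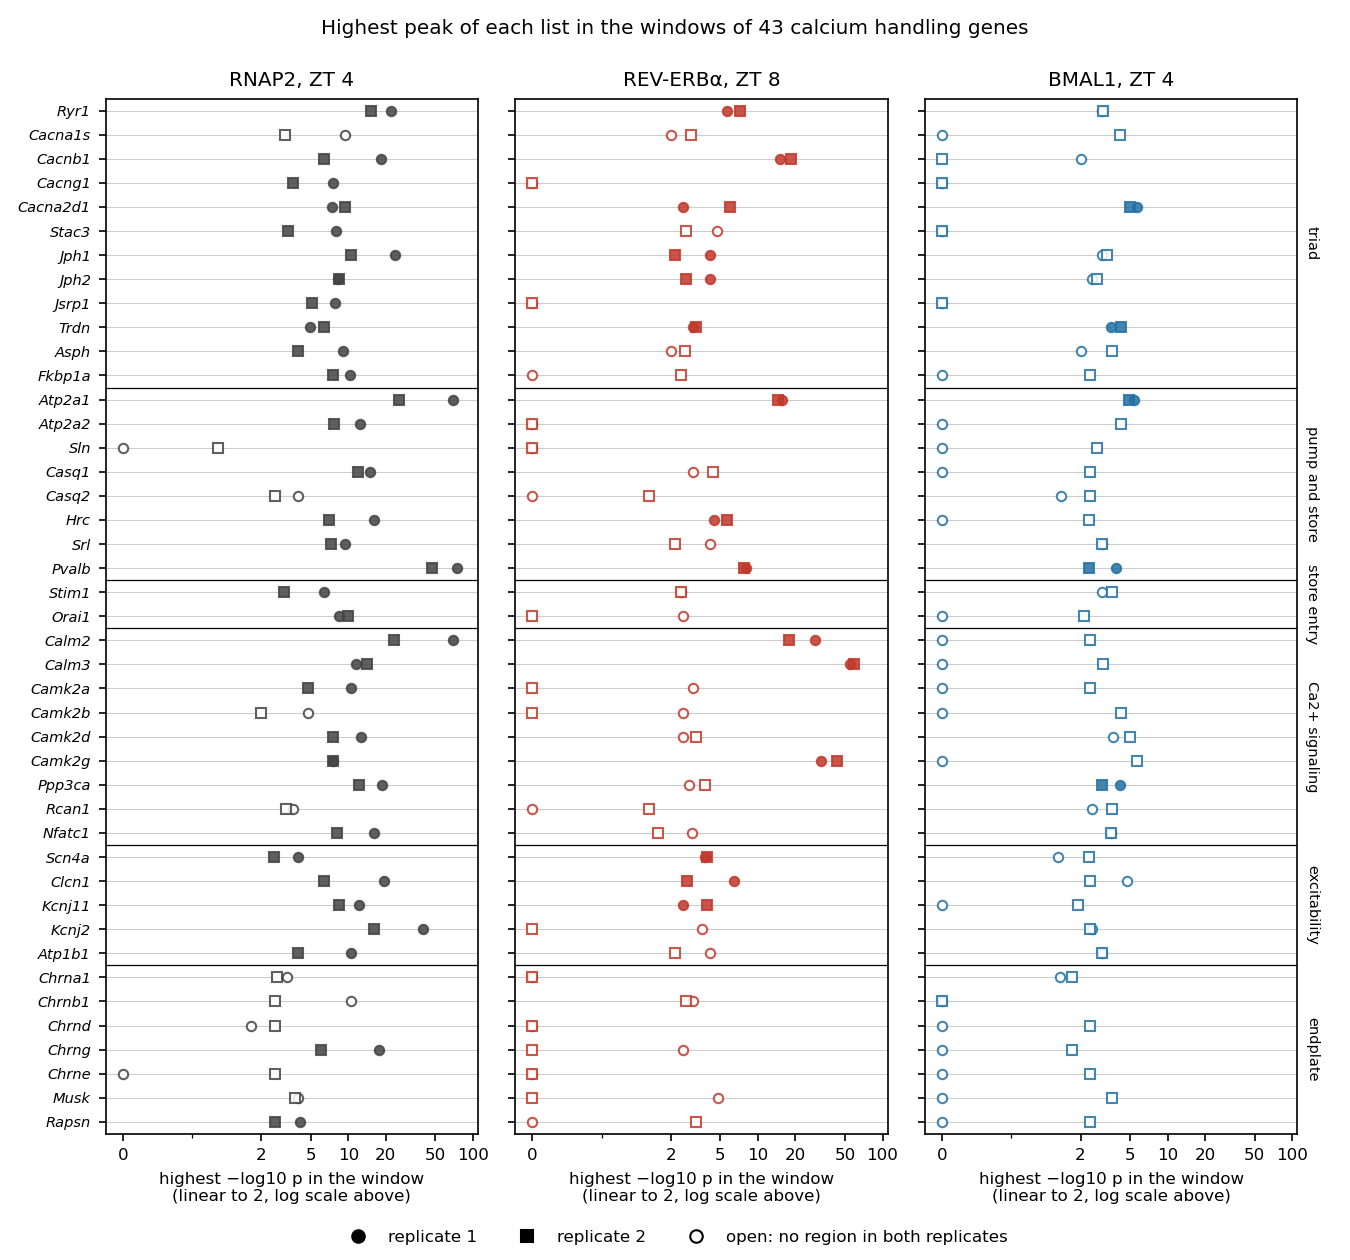
Highest −log10 p of a peak in the window of each of the 43 genes (rows, grouped by role), for RNAP2, REV-ERBα and BMAL1, on an axis that is linear to 2 and logarithmic above. Circles are replicate 1, squares replicate 2, open symbols genes with no region in both replicates, and 0 stands for no peak. Values of REV-ERBα reach 54.9 and 59.3 at Calm3, whereas BMAL1 stays under 6 in every window.

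The pump and store genes held the widest occupancy. Atp2a1 encodes SERCA1, the calcium pump of fast fibers, and its RNAP2 peaks reached a −log10 p of 68.9 and 25.7 at the promoter. RNAP2 peaks covered 94.5% of its body in replicate 1 and 50.2% in replicate 2. Pvalb encodes parvalbumin, the calcium buffer of fast fibers, with 74.8 and 46.8 and a cover of 75.7% and 45.1%. For comparison, the median cover over the 33 genes was 3.48% and 4.70%, and over other genes 1.81% and 3.69%, so that these genes stand far above both. Casq1, the calsequestrin of fast fibers, had a cover of 44.3% and 17.3%, and Kcnj11, the pore of the ATP-sensitive potassium channel, one of 28.3% and 26.8%. These were the 4 genes with a cover of at least 25% in replicate 1 (12.1% of the 33, beside 2.38% of other genes).

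The relatives used by slow fibers and heart had lower RNAP2 values. Atp2a2, the pump of slow fibers and heart, had 12.4 and 7.74 in a region of 519 bp at its promoter, below Atp2a1 in both lists. Casq2, the calsequestrin of slow fibers and heart, had no RNAP2 region in both replicates and its highest peaks were 3.97 and 2.60, against 14.9 and 12.0 for Casq1. Sarcolipin (Sln), a small inhibitor of the pump, had no RNAP2 peak in replicate 1 and one of 1.38 in replicate 2. Hrc, a calcium-binding protein of the store, had 16.0 and 6.97, and sarcalumenin (Srl) had a promoter region of 8.46 and 7.22.

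REV-ERBα occupancy at Atp2a1 and Pvalb was also wide. A REV-ERBα region of 21733 bp ran across Atp2a1 and past its 3′ end over the TSS of Rabep2, and it was the third widest of the 1263. It was merged from 2 peaks of each list, with 15.6 and 14.9 in replicate 1 and 14.6 and a lower peak in replicate 2, and the highest summits of the replicates lay in different parts of it. REV-ERBα peaks covered 97.6% and 97.3% of the Atp2a1 body and 73.5% and 83.1% of that of Pvalb, where a region of 12287 bp, also merged from several peaks, was the fifth widest. BMAL1 peaks covered 39.4% and 38.9% of Atp2a1 and 35.7% and 20.8% of Pvalb. Atp2a1 was the one gene of the 43 with a BMAL1 region at a −log10 p of at least 3 in both lists (5.38 and 3.60), beside 0.723% of other genes. No BMAL1 region in these windows passed a −log10 q of 1.3 in both lists, beside a share of only 0.267% of other genes (24 of 8994). Peaks of all 3 factors thus lay along both genes. RNAP2 cover was lower in replicate 2 at both genes. REV-ERBα cover was nearly equal in its replicates at Atp2a1 and higher in replicate 2 at Pvalb. The labels do not pair the replicates of different factors, and how far one factor depends on the other was not tested. Regions of all 3 factors also lay at markers of the myofiber, so that their presence together was not particular to these genes. For the markers only RNAP2 cover was read, and not that of REV-ERBα or BMAL1. At Acta1, skeletal actin, RNAP2 peaks covered the whole body in both replicates, and REV-ERBα reached 19.6 and 21.2. Myh4, a myosin heavy chain of fast fibers, had a cover of 86.6% and 89.3%, and both had REV-ERBα and BMAL1 regions and a shared site. Casq1, with the third highest RNAP2 cover in replicate 1, had a REV-ERBα cover of 16.8% and 15.1% but no REV-ERBα region in both replicates, since the peaks of the lists did not overlap.

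**Figure D4:**
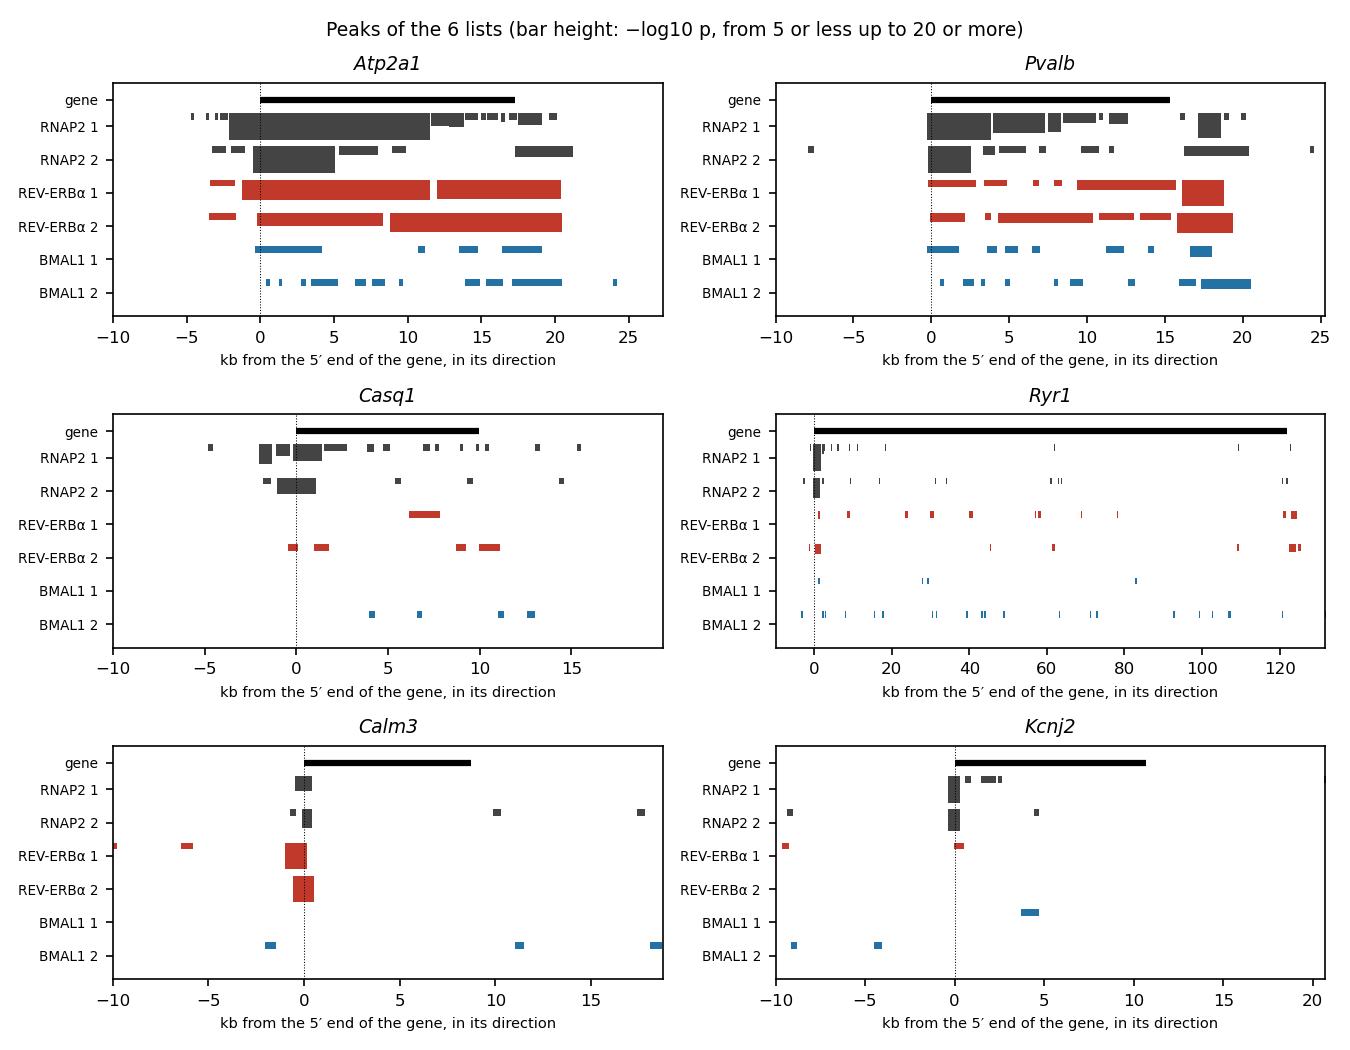
Peaks of the 6 lists along 6 genes, in kb from the 5′ end in the direction of the gene (black bar, gene body), with replicates on separate rows. Bar height is the −log10 p, drawn at the lowest height for 5 or less and at full height for 20 or more. Peaks of all 3 factors run along Atp2a1 and Pvalb, whereas the tallest bars of Calm3, Kcnj2 and Ryr1 sit at the 5′ end.

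At Pvalb the occupancy went on past the 3′ end. A REV-ERBα region of 3612 bp with a −log10 p of 21.5 and 15.4 had its summit 2397 bp beyond the end, in no protein-coding gene, where BMAL1 had 8.19 and 7.22 and RNAP2 had 18.9 and 7.22. The window, which reaches past the 3′ end only near a TSS, does not include it, although the values of REV-ERBα and BMAL1 were higher there than anywhere within it. It was a shared site with peaks in all 4 lists. The BMAL1 region ranked 19th of 2742 by its lower −log10 p, and the REV-ERBα region 88th of 1263. Its REV-ERBα summit is printed with the half-site AGGTCA, known as the core of the elements that REV-ERBα is known to bind, in capitals as it reads on the strand of the gene (TGACCT). The region at the Pvalb promoter is printed with it, where CAGCTG, an E-box known from myogenic factors, is in capitals.
Pvalb downstream, chr15:78188617-78188817, minus strand: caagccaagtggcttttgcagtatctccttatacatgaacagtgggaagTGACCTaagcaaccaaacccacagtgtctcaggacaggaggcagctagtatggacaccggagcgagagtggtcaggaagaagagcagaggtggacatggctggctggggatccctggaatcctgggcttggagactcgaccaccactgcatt
Pvalb promoter, chr15:78205504-78205704, minus strand: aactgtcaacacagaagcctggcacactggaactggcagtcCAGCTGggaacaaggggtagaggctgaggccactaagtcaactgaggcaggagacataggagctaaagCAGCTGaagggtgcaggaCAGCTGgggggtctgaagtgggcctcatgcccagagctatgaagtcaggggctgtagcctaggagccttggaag
The promoter region of Pvalb had 5.29 and 6.63 for REV-ERBα and 3.88 and 1.69 for BMAL1. Once this was seen, the 5 kb past the 3′ end were read for all genes, and a REV-ERBα region lay there at 7 of the 43 (16.3%), beside 1.93% of the other genes with an RNAP2 region. Of the 33 genes with an RNAP2 region this was 21.2%. For BMAL1 there were 3 (9.09% of the 33), beside 1.35%, and for RNAP2 5 (15.2% of the 33), level with 14.3%. The 7 genes were Ryr1, Jph2, Atp2a1, Pvalb, Camk2g, Scn4a and Clcn1, and at Ryr1, Camk2g and Atp2a1 the region lay at or ran over the TSS of another gene. At Ryr1 it had 5.73 and 5.65 and lay 475 bp from the TSS of Map4k1. At Camk2g it lay at Ndst2, and at Atp2a1 it was the wide region that reaches Rabep2.

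At Hrc, REV-ERBα had 4.45 and 5.65 in a region 446 bp upstream of the TSS, with a BMAL1 peak of 2.35 in replicate 2 alone, and RNAP2 overlapped it. This summit held an AGGTCA half-site, in capitals below.
Hrc, chr7:45334744-45334944, plus strand: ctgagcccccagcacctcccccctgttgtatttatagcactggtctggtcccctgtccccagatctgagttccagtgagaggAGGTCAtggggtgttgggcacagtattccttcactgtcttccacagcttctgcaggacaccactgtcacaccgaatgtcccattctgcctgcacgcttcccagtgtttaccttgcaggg
AGGTCA lay near the summit of 2 of 18 REV-ERBα regions in the windows, beside 13.1% of all, and CAGCTG near 4 of 18, beside 12.7%. The longer RORE and DR2 elements, which contain AGGTCA or its near form, and the MEF2 element had no match within 100 bp of these 18 summits in the strict spelling searched, on either strand. The RORE spelling matched 0.158% of all REV-ERBα summits, DR2 none, and MEF2 4.28%.

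In the signaling group, REV-ERBα occupied the promoters of both calmodulin genes. Peaks of 54.9 and 59.3 lay 265 bp upstream of the TSS of Calm3, where the fold enrichment over input was 13.6 and 15.1. By its lower value it ranked 8th of the 1263 REV-ERBα regions. Calm2 had 28.7 and 17.6 in a region 191 bp upstream, ranked 77th. BMAL1 had no peak in the window of either gene in replicate 1 and none at their promoters in replicate 2. The order of the genes turned round for RNAP2, with 68.9 and 23.4 at Calm2 and 11.6 and 14.1 at Calm3. Both genes encode the same calmodulin protein, and their REV-ERBα summits are printed side by side on the gene strand. None of the motifs searched was found in either of these 201-base windows, so that no letters are in capitals.
Calm3, chr7:16924279-16924479, minus strand: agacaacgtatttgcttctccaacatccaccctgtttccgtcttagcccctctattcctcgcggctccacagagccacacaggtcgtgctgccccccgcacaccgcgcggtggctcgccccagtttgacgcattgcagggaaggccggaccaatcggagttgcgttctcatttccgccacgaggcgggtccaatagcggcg
Calm2, chr17:87447026-87447226, minus strand: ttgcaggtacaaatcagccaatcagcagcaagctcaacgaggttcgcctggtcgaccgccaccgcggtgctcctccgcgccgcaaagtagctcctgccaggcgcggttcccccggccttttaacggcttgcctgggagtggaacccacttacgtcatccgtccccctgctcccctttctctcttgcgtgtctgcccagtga

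Ppp3ca, the catalytic subunit of calcineurin, had RNAP2 peaks of 18.6 and 12.2 at its promoter and the one BMAL1 region of the signaling group, in an intron and weak (lower value 1.40). Nfatc1, a transcription factor that calcineurin activates, had RNAP2 regions at a pair of promoters, with 16.0 and 8.09 at one and 4.58 and 4.60 at the other. Of the calcium/calmodulin-dependent kinase genes, Camk2d had 12.7 and 7.49, Camk2g 7.49 and 6.84, and Camk2a 7.43 and 4.73, each at a promoter. Camk2b had 4.71 and 1.99 with no region in both replicates, and was below the other kinase genes in both lists. Rcan1, a regulator of calcineurin, had 3.62 and 3.18, also without a region. The strong REV-ERBα region in the window of Camk2g, ranked 30th of 1263 by its lower value of 32.3, lay 88 bp from the TSS of Ndst2 and 4893 bp from the nearest TSS of Camk2g. Of the store entry genes, Orai1, the channel pore, had RNAP2 peaks of 8.49 or more in both replicates, and Stim1, the calcium sensor of the store, had 6.41 and 3.05. Neither had a REV-ERBα or BMAL1 region, beside 8.36% and 10.2% of the 8994 other genes with an RNAP2 region.

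All 5 genes of excitability had an RNAP2 region, and 3 had a REV-ERBα region. Kcnj2, an inward rectifier potassium channel, was the strongest with 40.0 and 16.2 at its promoter and no REV-ERBα peak in replicate 2. Clcn1, the chloride channel that sets the resting conductance of the fiber, had RNAP2 peaks of 19.4 and 6.35, and Atp1b1, a subunit of the sodium pump, had 10.5 and 3.97. Kcnj11 had 12.2 and 8.42, with a REV-ERBα region of 2.51 and 3.89 within 23 bp of a TSS. The REV-ERBα region of Clcn1 had 6.39 and 2.68 and lay downstream of the gene, where BMAL1 had a peak of 2.87 in replicate 1 alone, which made it a shared site outside any RNAP2 region. Scn4a, the sodium channel of the action potential, had no RNAP2 peak within 1 kb of a TSS in either list. Its stronger RNAP2 region lay in an intron with 3.97 and 2.53, the other lay nearer to Prr29, and its intronic REV-ERBα region, with 3.79 and 3.89, was nearer to the TSS of Cd79b.

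Endplate genes differed most from the rest in RNAP2. Only Rapsn, which clusters the acetylcholine receptor, had an RNAP2 region at its own promoter, with 4.11 and 2.24. None of the 7 had a REV-ERBα or BMAL1 region, beside 4.38% and 6.80% of all 21908 other genes. At such shares 7 genes are too few to set them apart. The region counted for Chrng, the fetal gamma subunit, had 17.7 and 6.00 but lay 50 bp from a TSS of Eif4e2, a neighbouring gene. Chrne, the adult epsilon subunit, had no RNAP2 peak in replicate 1 and 2.60 in replicate 2. Chrna1 had 3.21 and 2.69, Chrnd 1.85 and 2.60, and the receptor kinase Musk 3.97 and 3.72. Chrnb1 had 10.6 at its promoter in replicate 1, and replicate 2 had no peak there. In whole muscle, fewer nuclei of a kind and less occupancy in each nucleus cannot be told apart.

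In all, 10 genes had no RNAP2 region: Cacna1s, Sln, Casq2, Camk2b, Rcan1, Chrna1, Chrnb1, Chrnd, Chrne and Musk. None of these had a REV-ERBα or BMAL1 region, beside 4.38% and 6.80% of all 21908 other genes. With shares that low, 10 genes are too few to show a lack. Cacng1 and Jsrp1, both with an RNAP2 promoter region, were the only genes of the 43 with no REV-ERBα and no BMAL1 peak in any of the 4 lists. They were 6.06% of the 33 genes with an RNAP2 region, beside 3.21% of the 8994 other genes.

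Among other genes, REV-ERBα regions were more frequent where RNAP2 was stronger. When the 8994 genes were cut into 4 equal groups by RNAP2 strength, the share with a REV-ERBα region was 3.73%, 6.94%, 7.02% and 15.8% from the lowest to the highest group. The calcium handling genes had 1 of 3, 1 of 4, 3 of 9 and 10 of 17 between the same limits, so that each share stood above that of other genes, although the lower groups hold few genes. By window length, 3 of 7, 4 of 10, 3 of 6 and 5 of 10 had a REV-ERBα region from the shortest to the longest group, beside 8.90%, 7.91%, 7.65% and 8.99%. For BMAL1, 3 of 10 genes in the longest group had a region, beside 23.2%, and the 2 others, Atp2a1 and Pvalb, lay in the second group, beside 5.56%.

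**Figure D5:**
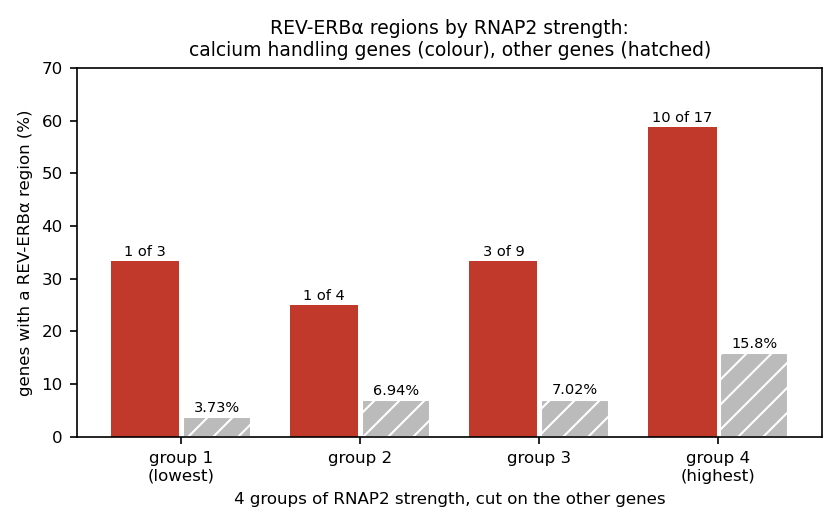
Share of genes with a REV-ERBα region (%, vertical axis) in 4 groups of RNAP2 strength (horizontal axis), with limits cut on the 8994 other genes. Coloured bars are the calcium handling genes with their counts and hatched bars the other genes, whose share goes from 3.73% to 15.8%.

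Of the 18 REV-ERBα regions in these windows, 7 had their summit within 1 kb of a TSS of the gene, 7 lay in introns, 2 upstream and 2 downstream, and 4 were nearest to the TSS of another gene. An RNAP2 region overlapped 12 of the 18 (66.7%), beside 32.9% of all 1263. The sets are unlike, since the 18 lie in windows of genes that all had an RNAP2 region, and the 1263 include regions far from any gene. Of the 11 BMAL1 regions, 4 lay in introns of Cacna2d1, 3 across Atp2a1, 2 at Pvalb and 1 each in Trdn and Ppp3ca. Those of Cacna2d1 had lower values of 1.58 to 2.79 and overlapped no region of RNAP2 or REV-ERBα. Cacna2d1 and Trdn are the longest of these genes, at 439.8 and 396.2 kb.

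The 5 genes with a shared site were Ryr1, Atp2a1, Hrc, Pvalb and Clcn1. Peaks of all 4 lists were present at Atp2a1 and at both sites of Pvalb, and the sites of Ryr1, Hrc and Clcn1 rested on 1 BMAL1 list each. Of 60 further genes of the same pathways, such as other channels, pumps and receptors, 39 had an RNAP2 region, beside 41.1% of all other protein-coding genes. Of the 60, 6 had a REV-ERBα region, 7 a BMAL1 region and 2 a shared site. The shares over all 21908 other genes were 4.38%, 6.80% and 1.60%. Every gene in those counts was among the 39 with an RNAP2 region. For that base of 39, the shares to set beside are the 8.36%, 10.2% and 2.99% of the 8994 other genes.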

How the data were processed

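Peak lists of ChIP-seq from gastrocnemius muscle were used as deposited, with 2 replicates each of BMAL1 (ZT 4), REV-ERBα (ZT 8) and RNAP2 (ZT 4), and the input DNA was not analysed here. The authors mapped reads to mm10 with BWA (version 7.12 in the submitters' processing notes), discarded duplicates and reads with several map positions, thinned the deeper replicate of each factor to the depth of the other and called peaks on each replicate against input DNA with Macs2 (2.1.1) at a permissive p-value cutoff. The deposited −log10 p, −log10 q and fold enrichment of each peak are those of the authors' Macs2 run at the summit. The deposited score was not used. The permissive cutoff means that most peaks of a single list are weak, and regions in both replicates were used for that reason.

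Overlapping peaks (1 bp or more) were merged. Genes, TSSs and exons came from GENCODE M21, and sequences from the RefSeq copy of GRCm38.p6. Motifs were sought on either strand up to 100 bp from a summit. Percentiles, cover and shares were set beside those of other genes with an RNAP2 region in both replicates. No test was run. The members and lists were chosen with earlier results of these data known. All 43 genes are accounted for, with full values for those with a REV-ERBα or BMAL1 region, the strongest 10 for RNAP2, those without an RNAP2 region and related genes. Other genes are named only where a region lies nearer to their TSS or a count turns on them. Merging, windows and cover were checked on simulated lists. Python 3.11.15, pysam 0.24.0 and matplotlib 3.10.9 were used.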

Additional observations from a re-analysis of the deposited data

How the results depend on the processing

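No paired analysis was possible because the results come from no test. Shares of other genes are in parentheses, and under a threshold their base is the genes whose RNAP2 region passed it too. When every list had to reach a −log10 p of 3, 9 of the 43 genes had a REV-ERBα region (6.23%), 1 a BMAL1 region (0.919%) and 2 a shared site (1.25%), the median RNAP2 cover (mean of the replicates) was 2.45% instead of 3.81%, and the median RNAP2 percentile 62.0 instead of 72.2. With a −log10 q of at least 1.3 the counts were 6 (4.31%), 0 (0.533%) and 0 (0.775%). BMAL1 fell to 2 genes when the gene body was left out (6.51%) and to 2 when both lists of a factor were cut to equal length (3.24%), where the percentile was 69.2. Ranked among all protein-coding genes it was 83.3. With 1 list left out in turn, a single peak counted as a region, and the counts were 41 to 43 for RNAP2 (76.8% to 86.4%), 30 to 32 for REV-ERBα (49.7% to 52.6%), 21 to 38 for BMAL1 (48.3% to 93.1%) and 2 to 4 for shared sites (1.35% to 1.78%). Without replicate 1 of BMAL1 the genes had 88.4%, below the 93.1% of others. Cover was then 2.51% to 4.60% and the percentile 78.5 to 83.1. Without either REV-ERBα list, the shared sites of Ryr1, Hrc and Clcn1 were lost. Where a region was given only to the gene with the nearest TSS, 12 genes kept REV-ERBα (6.77%) and 32 RNAP2. The window with 5 kb past the 3′ end, chosen after seeing the data, gave 33 genes for RNAP2 (42.2%), 15 for REV-ERBα (8.50%), 6 for BMAL1 (10.5%) and 6 for shared sites (3.17%). Counts of genes with an RNAP2 region stayed within 1.5 times under every alternative. The depth of each peak is unknown, which limits how weak regions can be read.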

Other observations

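Among the 60 further genes of these pathways, high RNAP2 values were those of Calr (41.2 and 51.1), a calcium-binding chaperone of the reticulum, and Tmem38a (33.8 and 22.2), a cation channel of the sarcoplasmic reticulum. The 6 genes with a REV-ERBα region were Tmem38a, Sypl2, Bin1, Itpr1, Atp2b1 and Abcc8. Sypl2 (mitsugumin 29) and Bin1 (amphiphysin 2) are proteins of the tubule system, Itpr1 is a calcium release channel and Atp2b1 a calcium pump of the surface membrane. Abcc8 neighbours Kcnj11 and its window takes in the same promoter. Itpr1 and Atp2b1 had the shared sites. The 7 genes with a BMAL1 region were Ryr3, Cacnb4, Itpr2, Stim2, Ppp3cb, Rcan2 and Nfatc2, and none had a REV-ERBα region. Only 1.91% of the 8994 other genes with an RNAP2 region had regions of both factors, so that 60 genes are too few to show a lack of overlap. These genes were named after their values were seen.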
